A study of Mus musculus with 19 samples.

Results

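The genes described here are 50 genes of skeletal muscle, the proteins of the contractile unit (the sarcomere), of fibre-type isoforms, of excitation and calcium release, and of muscle energy metabolism. They were chosen as a list of names, with earlier results of these data known. Of the 50, 49 had a row of the deposited table that carried exactly 1 gene symbol, out of 22180 genes measured in this way. Mybph, the remaining listed gene, is not analysed here. Where a gene had several such rows (4 of the 49: Myh8, Tpm3, Ryr1 and Ckm), the row chosen was the one whose mean over the 19 arrays was highest.

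The study removed MED1, a component of Mediator, the large complex between transcription factors and RNA polymerase II, from fat. In embryos at E17.5, late in gestation, brown fat of Myf5CreMed1f/f mice (4 arrays) was set against brown fat of Myf5CreMed1f/w mice (3 arrays), so both groups carried Myf5-Cre and the controls kept 1 unfloxed Med1 allele. In adults of 10 weeks, brown fat of AdipoqCreMed1f/f mice (2 arrays) was set against that of Med1f/f mice (2 arrays), whose label names no Cre. A further 8 arrays held 3T3-L1 cells, a mouse line that differentiates into white-type fat cells in culture, as pooled RNA of MED1-knockout clones (4 arrays) and parental wild-type cells (4 arrays) at day 0 and day 2 of differentiation. Myf5-Cre acts in precursors of skeletal muscle as well as of brown fat, and Adipoq-Cre acts in fat cells. The labels do not give the animal or litter behind each array. The p-values set the difference between groups against the spread of arrays within groups, drawn toward that of all genes. Part of this spread may be technical.

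Skeletal muscle and brown fat share precursors that have expressed Myf5. Muscle fibres are built from sarcomeres, in which myosin filaments pull on actin filaments anchored at Z-discs, and calcium released from the sarcoplasmic reticulum starts each contraction. Fibres first use embryonic and neonatal myosins and later change to slow or fast adult isoforms, together with matching troponins, light chains and calcium pumps. Muscle also lies next to the interscapular brown fat pad, and in RNA from whole tissue a change in the number of muscle cells and a change in RNA per cell cannot be told apart.

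The promoters of 4 genes are printed to show the kinds of muscle promoter in the list, for Acta1 (skeletal muscle actin), Pygm (muscle glycogen phosphorylase), Myh3 (the embryonic myosin heavy chain) and Myh4 (the adult fast type IIb myosin heavy chain). Each sequence runs 5′ to 3′ on the strand of the gene, from 250 bases before to 50 bases after the annotated start, and is taken from RefSeq on GRCm38.p6. Capitals mark matches to CAGCTG (an E-box, the kind of site that MyoD-family factors bind), to the MEF2 motif, to the CArG box bound by serum response factor, and to TATAAA, a core promoter motif.
Acta1, chr8:123894726-123895025, minus strand: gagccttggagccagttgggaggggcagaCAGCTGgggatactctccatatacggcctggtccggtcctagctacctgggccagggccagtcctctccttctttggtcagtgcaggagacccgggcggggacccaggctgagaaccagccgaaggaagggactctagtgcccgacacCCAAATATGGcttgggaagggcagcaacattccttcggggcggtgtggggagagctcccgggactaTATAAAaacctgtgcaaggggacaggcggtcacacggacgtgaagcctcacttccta
Pygm, chr19:6384158-6384457, plus strand: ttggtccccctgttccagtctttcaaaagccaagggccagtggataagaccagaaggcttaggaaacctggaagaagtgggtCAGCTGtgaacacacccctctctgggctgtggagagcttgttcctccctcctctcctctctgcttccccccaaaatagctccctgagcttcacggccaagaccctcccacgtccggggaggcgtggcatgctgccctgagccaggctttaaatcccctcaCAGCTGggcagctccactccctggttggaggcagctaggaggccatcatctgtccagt
Myh3, chr11:67078050-67078349, plus strand: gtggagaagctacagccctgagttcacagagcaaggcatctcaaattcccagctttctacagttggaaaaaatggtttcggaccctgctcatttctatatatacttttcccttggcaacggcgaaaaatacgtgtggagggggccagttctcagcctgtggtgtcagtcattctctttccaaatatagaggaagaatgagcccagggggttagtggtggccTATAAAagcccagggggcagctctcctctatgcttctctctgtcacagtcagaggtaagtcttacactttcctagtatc
Myh4, chr11:67237562-67237861, plus strand: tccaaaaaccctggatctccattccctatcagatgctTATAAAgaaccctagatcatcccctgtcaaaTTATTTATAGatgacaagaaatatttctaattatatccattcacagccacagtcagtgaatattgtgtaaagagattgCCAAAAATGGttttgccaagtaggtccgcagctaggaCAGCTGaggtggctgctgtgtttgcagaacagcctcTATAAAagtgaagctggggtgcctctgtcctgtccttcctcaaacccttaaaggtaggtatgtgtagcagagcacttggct

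Acta1 held CAGCTG with its first base at -221 from the start, a CArG box at -73 and TATAAA at -7. Pygm held CAGCTG at -168 and again at -8, and Myh3 held TATAAA at -29 and no CAGCTG within these bases. Myh4 held CAGCTG at -67, a MEF2 match at -182, a CArG box at -104 and TATAAA at -213, -31 and, on the opposite strand and inside the MEF2 match, at -179. A promoter was given for 38 of the 49 measured genes. CAGCTG, searched on both strands, was present for 21 of these 38 (55.3%), against 18.3% of the 27025 genes with a promoter in the RefSeq set. CAGGTG was present for 11 of the 38 (28.9%), against 22.6% of all genes, the MEF2 motif for 7 (18.4%), against 3.70%, the CArG box for 5 (13.2%), against 1.81%, and TATAAA for 9 (23.7%), against 15.7%. These matches describe letters in the window and do not show that a factor binds there.

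Values are log2 RMA signals, on which a difference of 1 stands for a fold change of 2. Array medians were 3.49 to 3.57 at E17.5, 2.87 to 2.89 in the adult and 4.69 to 4.79 in the cells, and the sources used here do not say whether the 3 experiments were normalized together, so levels are compared only within a gene and within an experiment. A gene is called changed where its limma p-value, adjusted by the Benjamini-Hochberg method over all 22180 genes, was under 0.05, and each ± gives a standard error of the log2 fold change. A gene is called dim on an array where its signal lay under that array's own lower quartile, a limit chosen with the values in view.

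At E17.5 the muscle genes stood higher as a group in Myf5CreMed1f/f than in Myf5CreMed1f/w brown fat, with the largest estimates for Pygm, Actn2 and Myh3. The knockout-minus-control log2 fold change was above 0 for 46 of 49 genes, with a median of 0.90, against 46.3% of all 22180 genes and a median of -0.01. Only Myom2, a protein of the sarcomere's M-band, passed the adjusted threshold, against 257 of all genes (1.16%). All 4 knockout arrays lay above all 3 control arrays for 36 of the 49 genes, against 8.56% of all genes, and below them for 1 gene, Mb, against 6.83% of all genes. The unadjusted p was under 0.05 with higher knockout signal for 38 of the 49, against 10.9% of all genes. The 49 genes are read from the same 7 arrays, so they are not independent and these counts describe these arrays only.

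The mean signal of the 49 genes was 6.57, 6.40, 6.38 and 6.31 in the 4 knockout arrays, against 5.85, 5.91 and 5.08 in the 3 control arrays. The groups did not overlap, and control replicate 3 stood apart at the low end. It was the lowest control for 44 of the 49 genes and the highest for none. Without control replicate 3 the median log2 fold change was 0.58, with 45 of 49 genes above 0 and 36 of 49 with all knockout arrays above both remaining controls. Without it, limma called no gene of the 22180, and 35 muscle genes were higher at an unadjusted p under 0.05. Non-overlap is easier with fewer controls, and the shares over all genes for non-overlap and for this p were not computed there. No gene was called either when any 1 of the other E17.5 arrays was left out, so the Myom2 call needed all 7 arrays.

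**Figure D1:**
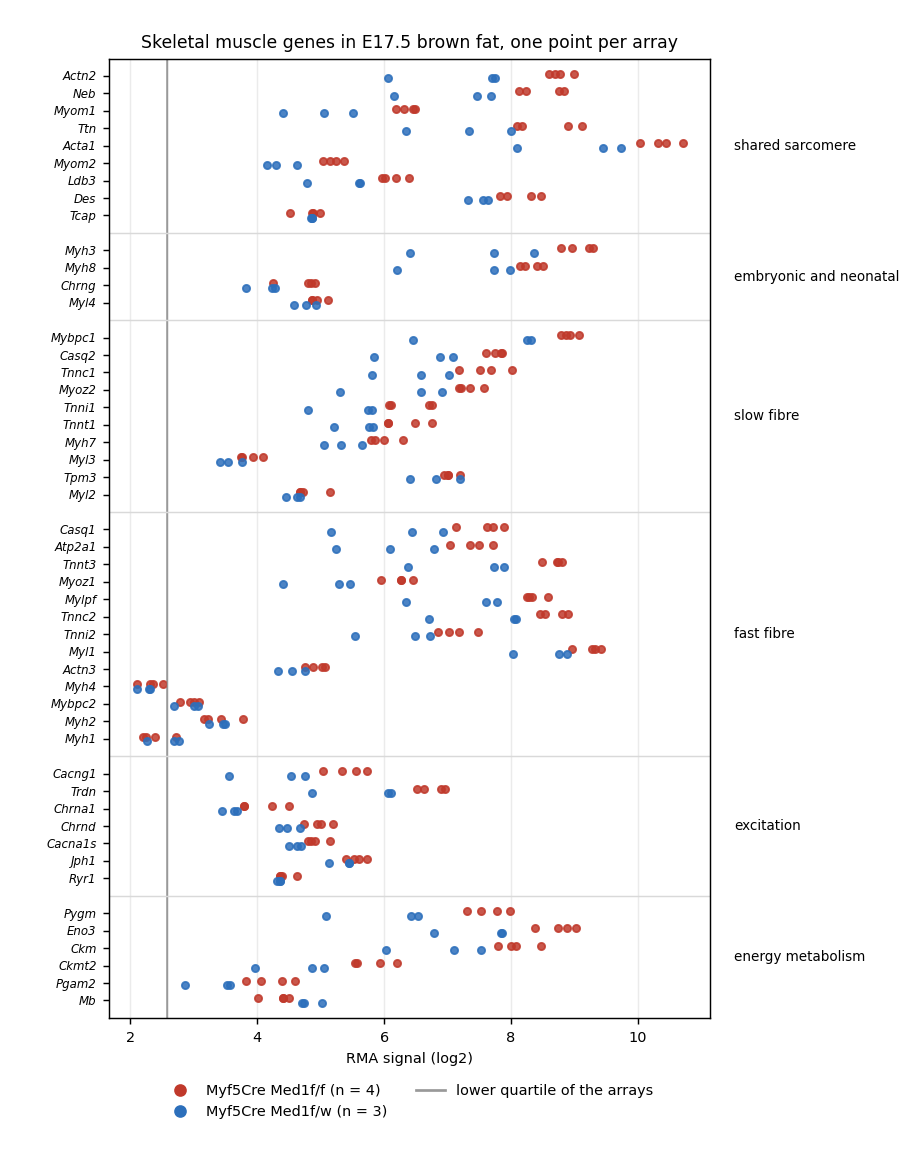
Log2 RMA signal of the 49 skeletal muscle genes in E17.5 brown fat, 1 point per array and 1 row per gene, grouped by role and ordered within a role by fold change, with the 4 Myf5CreMed1f/f arrays in one colour and the 3 Myf5CreMed1f/w arrays in another. For 36 genes every knockout point lies to the right of every control point, and for Mb the order is the opposite.

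The sarcomere genes that the list does not place under a fibre type, called shared here, had the highest median of the 6 roles, 1.29. Of these, 8 of 9 measured genes were above 0 and not overlapping between groups. The label does not state that every fibre type makes each of them. Myom2 had 5.36, 5.04, 5.24 and 5.15 in knockout arrays, against 4.29, 4.62 and 4.16 in control arrays, a log2 fold change of 0.84 ± 0.13 (adjusted p = 0.046). Acta1 had 10.70, 10.44, 10.31 and 10.04 in knockout arrays, against 9.44, 9.73 and 8.09 in control arrays. Every knockout array was above the highest control, and the log2 fold change was 1.29 ± 0.38 (adjusted p = 0.13). Actn2, the alpha-actinin that crosslinks actin at the Z-disc, had 9.0, 8.77, 8.69 and 8.60 in knockout arrays, against 7.75, 7.70 and 6.06 in control arrays (1.60 ± 0.40, adjusted p = 0.091). Control replicate 3 was more than 1 log2 unit below the other 2 controls for both genes.

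Ttn, titin, the spring that spans the sarcomere from Z-disc to M-band, had 8.17, 8.10, 8.90 and 9.12 in knockout arrays, against 7.34, 8.0 and 6.35 in control arrays, with a log2 fold change of 1.34 ± 0.42 (adjusted p = 0.15). Neb, nebulin, which runs along the thin filament, had 8.23, 8.13, 8.75 and 8.83 in knockout arrays, against 7.46, 7.68 and 6.16 in control arrays (1.39 ± 0.38, adjusted p = 0.11). For both of these very long genes knockout replicates 3 and 4 were the higher ones, whereas for Acta1 and Actn2 replicates 1 and 2 were. Des, desmin, the intermediate filament that ties neighbouring Z-discs together and that smooth muscle also makes, had 8.47, 8.31, 7.93 and 7.82 in knockout arrays, against 7.56, 7.63 and 7.32 in control arrays (0.63 ± 0.17, adjusted p = 0.11). Its controls were close together, and leaving out 1 array at a time gave log2 fold changes of 0.52 to 0.73. Tcap, telethonin, a cap on titin at the Z-disc, was the 1 gene of this group without a higher knockout mean, with 4.88, 4.87, 4.98 and 4.51 in knockout arrays, against 4.86, 4.87 and 4.85 in control arrays.

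Among developmental isoforms, Myh3 had 8.96, 8.79, 9.23 and 9.28 in knockout arrays, against 7.73, 8.37 and 6.41 in control arrays. The groups did not overlap, and the log2 fold change was 1.56 ± 0.42 (adjusted p = 0.11), the third highest of the 49. Myh8, the neonatal myosin heavy chain, had 8.22, 8.15, 8.51 and 8.41 in knockout arrays, against 7.73, 7.98 and 6.20 in control arrays (1.01 ± 0.40, adjusted p = 0.22). Without control replicate 3 these differences were 1.02 for Myh3 and 0.46 for Myh8. Chrng, the acetylcholine receptor subunit of fetal muscle, had 4.90, 4.85, 4.80 and 4.25 in knockout arrays, against 4.23, 4.27 and 3.82 in control arrays, and knockout replicate 4 lay inside the range of the controls (0.60 ± 0.19, adjusted p = 0.14). Myl4, the embryonic and atrial light chain, differed by 0.19 ± 0.10 with overlapping arrays.

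All 10 slow-fibre genes were above 0, with a median of 0.85, and 7 of them did not overlap. Myh7, the slow myosin heavy chain, had 5.86, 6.0, 5.79 and 6.29 in knockout arrays, against 5.32, 5.65 and 5.05 in control arrays (0.65 ± 0.17, adjusted p = 0.10). Tnni1, the slow troponin I, had 6.75, 6.71, 6.08 and 6.10 in knockout arrays, against 5.81, 5.75 and 4.79 in control arrays (0.96 ± 0.30, adjusted p = 0.14). Both genes kept the groups apart, with the gap between the nearest arrays smaller than the spread within either group. Myl2, the slow regulatory light chain, had 5.14, 4.72, 4.68 and 4.68 in knockout arrays, against 4.45, 4.68 and 4.63 in control arrays, which overlapped (0.22 ± 0.13, adjusted p = 0.41). The other slow genes ranged from 0.23 for Tpm3, a tropomyosin that non-muscle cells also make, to 1.24 for Mybpc1, the slow myosin-binding protein C.

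The 13 fast-fibre genes split by isoform. Of these, 9 (Myl1, Mylpf, Tnnt3, Tnni2, Tnnc2, Actn3, Myoz1, Casq1 and Atp2a1) did not overlap and ranged from 0.39 to 1.41. The adult fast myosin heavy chains Myh1, Myh2 and Myh4 and the fast myosin-binding protein C, Mybpc2, lay between -0.18 and 0.09 with overlapping arrays. Myh4 had 2.35, 2.10, 2.31 and 2.52 in knockout arrays, against 2.29, 2.31 and 2.10 in control arrays, and was dim on all 7. Myh1 was dim on 3 of 4 knockout arrays and 1 of 3 control arrays. The fast genes that stood apart thus included the light chains, troponins and calcium-handling proteins, and the adult heavy chains were not among them.

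Mylpf, the fast regulatory light chain, had 8.59, 8.33, 8.25 and 8.29 in knockout arrays, against 7.61, 7.78 and 6.35 in control arrays (1.12 ± 0.33, adjusted p = 0.13). Tnni2, the fast troponin I, had 7.48, 7.18, 7.02 and 6.85 in knockout arrays, against 6.49, 6.72 and 5.54 in control arrays (0.88 ± 0.29, adjusted p = 0.16). For both genes the groups did not overlap, and control replicate 3 was the lowest array. Casq1, calsequestrin, the calcium store of the fast sarcoplasmic reticulum, had 7.89, 7.71, 7.62 and 7.14 in knockout arrays, against 6.93, 6.44 and 5.16 in control arrays (1.41 ± 0.41, adjusted p = 0.12). Atp2a1, the fast calcium pump SERCA1, had 7.71, 7.5, 7.35 and 7.03 in knockout arrays, against 6.79, 6.10 and 5.25 in control arrays (1.35 ± 0.35, adjusted p = 0.095). For these 2 calcium-handling genes the 3 controls were spread over more than 1 log2 unit.

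The 7 genes of excitation and calcium release had the smallest median, 0.47, all above 0 and 5 not overlapping. Cacng1, a subunit of the muscle voltage-gated calcium channel, and Trdn, triadin, which holds calsequestrin to the release channel, differed by 1.13 ± 0.30 and 1.07 ± 0.31. Ryr1, the release channel itself, had 4.62, 4.39, 4.37 and 4.35 in knockout arrays, against 4.37, 4.31 and 4.37 in control arrays, which overlapped (0.09 ± 0.08, adjusted p = 0.58). The acetylcholine receptor subunits Chrna1 and Chrnd differed by 0.49 ± 0.19 and 0.47 ± 0.12, with no overlap.

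Among genes of energy metabolism 5 of 6 were above 0 and did not overlap, with a median of 1.19. Pygm, which releases glucose units from muscle glycogen, had 7.98, 7.78, 7.52 and 7.31 in knockout arrays, against 6.54, 6.42 and 5.09 in control arrays. Its log2 fold change of 1.64 ± 0.36 (a fold of 3.11, adjusted p = 0.073) was the highest of the 49. Ckm, the muscle creatine kinase that buffers ATP, had 8.47, 8.0, 8.08 and 7.79 in knockout arrays, against 7.10, 7.52 and 6.02 in control arrays (1.20 ± 0.35, adjusted p = 0.12). Mb, myoglobin, the oxygen-binding protein that brown fat also makes, had 4.40, 4.02, 4.50 and 4.41 in knockout arrays, against 5.02, 4.74 and 4.71 in control arrays. It was the only one of the 49 with all knockout arrays below all controls (-0.49 ± 0.13, adjusted p = 0.11), the lowest log2 fold change of the list.

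Another 60 muscle genes that are not among the 50 were followed, and 56 of them were measured. Of these, 48 were above 0 with a median of 0.41, against 46.3% of all genes and a median of -0.01. All knockout arrays lay above all controls for 27, against 8.56% of all genes, and below them for 2, against 6.83%. The 2 were Fbp2, the lowest of the 56 (-0.78 ± 0.26), and Chrne (-0.12 ± 0.06). Srl, sarcalumenin, a calcium-binding protein of the sarcoplasmic reticulum, passed the threshold, with 7.24, 7.14, 7.17 and 7.09 in knockout arrays, against 6.5, 6.74 and 6.61 in control arrays (0.54 ± 0.07, adjusted p = 0.044). The 3 highest were Myot (myotilin of the Z-disc, 1.65 ± 0.42), Cox6a2 (a muscle subunit of cytochrome oxidase that brown fat also makes, 1.34 ± 0.33) and Actc1 (the actin of heart and embryonic muscle, 1.19 ± 0.37), none of which passed the threshold.

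Of the 8 genes of myogenic regulation, 5 were above 0 and none was called. For 3 the knockout signal was higher at an unadjusted p under 0.05, against 10.9% of all genes. The late regulator Myf6 differed by 1.41 ± 0.33 (adjusted p = 0.080) and the fusion factor Mymk by 1.30 ± 0.43 (adjusted p = 0.16), both without overlap. The factors of precursor cells gave -0.10 ± 0.10 for Pax7, -0.08 ± 0.11 for Pax3 and -0.05 ± 0.16 for Myf5, all overlapping. None of the 8 was dim on any E17.5 array.

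Marker genes of other cells also differed between the groups. All 10 brown adipocyte markers were below 0 with a median of -0.71, and their mean signal was 7.98 to 8.40 in knockout arrays, against 8.94 to 9.50 in control arrays. Ucp1, the uncoupling protein of brown fat, fell by 3.14 on the log2 scale (SE 0.40, adjusted p = 0.044), with 7.37, 8.34, 7.57 and 7.23 in knockout arrays, against 10.64, 10.07 and 11.59 in control arrays, and Dio2, the thyroid hormone deiodinase, fell by 1.66 (SE 0.17, adjusted p = 0.036). Control replicate 3, the lowest for muscle genes, was the highest for this marker mean, at 9.50. All 5 fibroblast markers were above 0 (median 0.63), and Col1a1 (0.60 ± 0.09, adjusted p = 0.046) and Col3a1 (0.63 ± 0.10, adjusted p = 0.048) rose. Their mean was 9.77 to 10.06 in knockout arrays, against 8.91 to 9.52 in control arrays.

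Of 5 smooth muscle markers, all above 0, Acta2 (0.76 ± 0.13, adjusted p = 0.048) and Cnn1 (0.77 ± 0.10, adjusted p = 0.046) rose, and their mean was 6.67 to 6.81 in knockout arrays, against 6.16 to 6.47 in control arrays. All 6 macrophage markers were above 0 without a call (median 0.42), and 3 were higher at an unadjusted p under 0.05, against 10.9% of all genes. Heart markers had a median of 0.03, with Tnnt2, a troponin that embryonic skeletal muscle also uses, at 1.10 ± 0.31 and the other 5 between -0.09 and 0.06. Medians were -0.16 for endothelial, -0.04 for Schwann cell and -0.11 for epidermal markers, with no call in these lists or among 5 cartilage markers. Among their members, S100b of Schwann cells was at -0.94 ± 0.20 (adjusted p = 0.071) and Sox9 of cartilage at 1.19 ± 0.28 (adjusted p = 0.083), both without overlap. None of the brown adipocyte, fibroblast, smooth muscle, macrophage or heart markers was dim on any E17.5 array. The part of these cell types in the muscle-gene differences was not tested.

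**Figure D2:**
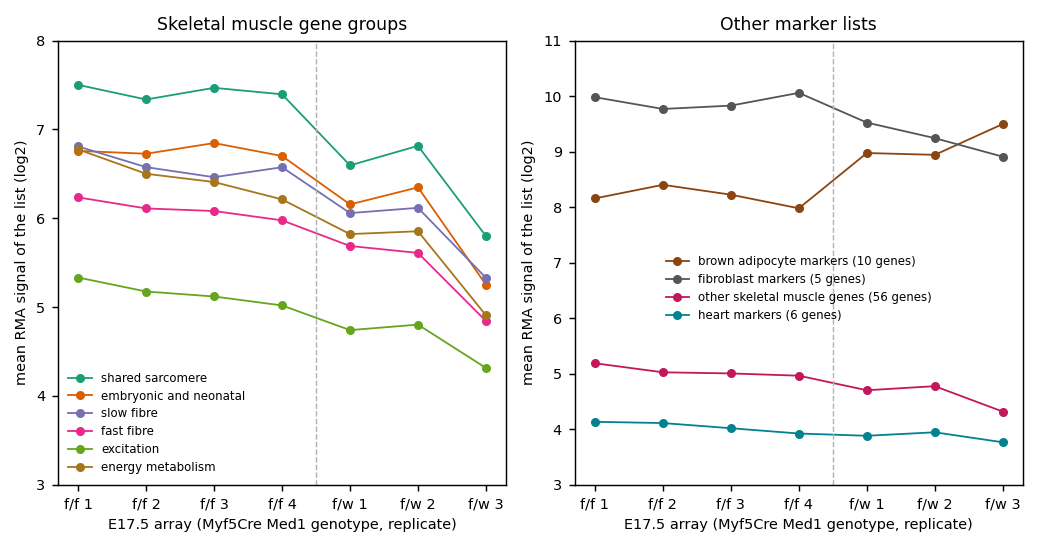
Mean log2 RMA signal of each group of muscle genes (left) and of 4 other gene lists (right) on each E17.5 array, with the 4 Myf5CreMed1f/f arrays (f/f) left of the dashed line and the 3 Myf5CreMed1f/w arrays (f/w) right of it. Every muscle group is higher on the knockout arrays, control replicate 3 is lowest for each, and the brown adipocyte mean lies the other way, at 7.98 to 8.40 on knockout arrays against 8.94 to 9.50 on control arrays.

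Med1 itself overlapped between the E17.5 groups, with 7.0, 7.10, 7.10 and 6.88 in knockout arrays, against 6.94, 7.33 and 7.82 in control arrays (-0.35 ± 0.19, adjusted p = 0.37). The controls are heterozygous, whole brown fat also holds cells in which Myf5-Cre does not act, and the sources used here do not say which part of the transcript the probes read. The E17.5 knockout therefore rests on the labels. In the adult, Med1 had 5.28 and 5.13 in knockout arrays, against 5.99 and 6.90 in control arrays (-1.24 ± 0.31, adjusted p = 0.19), and in the 3T3-L1 cells it fell by 1.31 (SE 0.08, adjusted p = 0.0011).

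In adult brown fat no muscle gene passed the threshold, and the median lay on the other side of 0 from that at E17.5. Of the 49 genes 13 were above 0 and 36 below, with a median of -0.18, against 50.5% above 0 and a median of 0.00 over all genes. The adult fit called 6 genes in all (0.0271%) from 2 arrays a group. At an unadjusted p under 0.05, passed by 13.6% of all genes, 4 of the 49 were found, Tpm3 higher and Myom1, Des and Jph1 lower in the knockout. Both knockout arrays were above both controls for 3 of 49 genes, against 21.8% of all genes, and below them for 12 of 49, against 20.1% of all genes. The 3 were Myl4, Tpm3 and Pgam2, a muscle phosphoglycerate mutase, and the 12 were Actn2, Myom1, Ldb3, Des, Myh8, Myoz2, Myl1, Myl2, Ryr1, Jph1, Chrna1 and Chrnd. The first share was below its background and the second close to it.

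Des was the muscle gene with the largest adult difference. It had 5.82 and 5.76 in knockout arrays, against 7.13 and 7.30 in control arrays, a log2 fold change of -1.42 ± 0.14 (adjusted p = 0.052). The gap between groups was much wider than the spread within either. Tpm3 had 6.07 and 6.26 in knockout arrays, against 5.61 and 5.35 in control arrays (0.69 ± 0.16, adjusted p = 0.17), the highest of the 49. Jph1, junctophilin, which holds the surface membrane and the sarcoplasmic reticulum together, had 3.24 and 3.52 in knockout arrays, against 3.94 and 3.80 in control arrays (-0.50 ± 0.16, adjusted p = 0.28).

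For a set of mainly fast-fibre and shared sarcomere genes, the 2 adult arrays of a group differed by more than the groups did. Acta1 had 3.76 and 4.98 in knockout arrays, against 3.69 and 5.82 in control arrays (-0.39 ± 0.77, adjusted p = 0.92). Myh4, the adult fast myosin, had 2.60 and 4.54 in knockout arrays, against 2.74 and 5.47 in control arrays (-0.54 ± 1.05, adjusted p = 0.91). Tnnt3, the fast troponin T, had 3.02 and 5.11 in knockout arrays, against 3.53 and 6.05 in control arrays (-0.73 ± 1.02, adjusted p = 0.86). In all 3 genes replicate 2 was the higher array in both groups, by more than 1 log2 unit.

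Atp2a1 had 3.23 and 4.12 in knockout arrays, against 3.75 and 5.44 in control arrays (-0.91 ± 0.61, adjusted p = 0.62). Ttn had 2.64 and 3.42 in knockout arrays, against 2.46 and 4.08 in control arrays, and Actn3, the fast-fibre alpha-actinin, had 3.17 and 3.43 in knockout arrays, against 3.43 and 4.54 in control arrays. Ckm had 3.49 and 4.45 in knockout arrays, against 4.32 and 4.64 in control arrays (-0.51 ± 0.34, adjusted p = 0.62). Mylpf, Tnni2, Tnnc2 and Neb showed the same order of arrays as Acta1. Without control replicate 2, the median over the 49 genes was 0.06 and 30 were above 0, so the sign of the adult median rested on that array.

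Replicate 2 was above replicate 1 for 38 of 49 genes in the knockout and for 37 of 49 in the control, for 30 in both. Across the 49 genes the gap in one group and the gap in the other had a Pearson correlation of 0.80, against 0.33 over all genes. The points are genes that share the same 4 arrays, so this describes these arrays only. A gap above 0.5 in both groups, a limit chosen with the values in view, was found for 11 of the 49 genes, 8 of the 13 fast-fibre genes and 3 of the 9 shared sarcomere genes (Acta1, Ttn and Neb). The other 6 shared sarcomere genes, Des among them, did not pass it, and the fast gene Myl1 was lower in replicate 2 of both groups. None of the 10 slow genes passed it, although their gaps ran from -0.96 (Myl3, control) to 1.18 (Mybpc1, control). Myh7 had 2.65 and 2.89 in knockout arrays, against 2.73 and 2.61 in control arrays. The myosins Myh3 and Myh8 were dim on all 4 adult arrays. Brown adipocyte markers also averaged higher in replicate 2, at 9.14 against 8.70 for replicate 1 in the knockout and at 10.37 against 9.41 in the control. The part of the array in the fold changes of these genes was not tested beyond leaving arrays out.

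**Figure D3:**
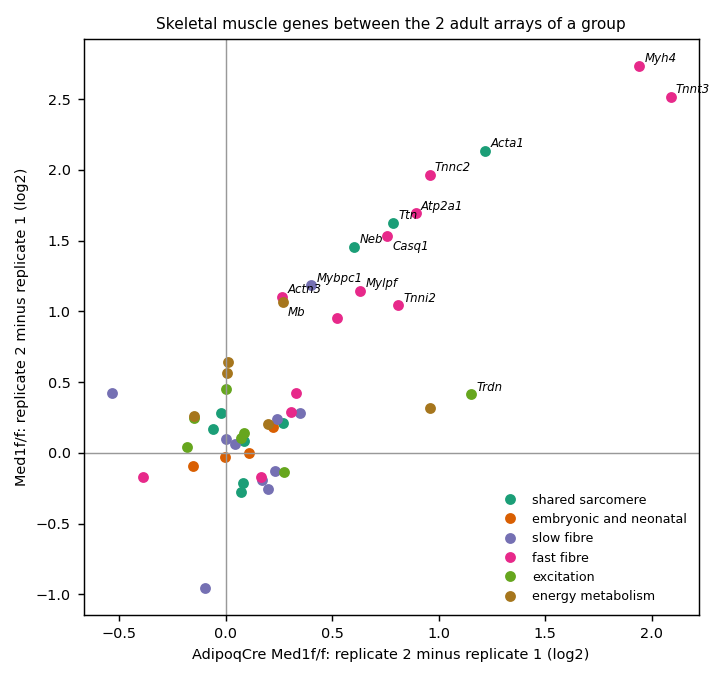
Replicate 2 minus replicate 1 (log2) for each of the 49 muscle genes in adult AdipoqCreMed1f/f brown fat (horizontal axis) and Med1f/f brown fat (vertical axis), coloured by role. Of the 49 genes 11 lie above 0.5 on both axes, 8 of them fast-fibre genes and 3 of the shared sarcomere, with Myh4, Tnnt3 and Acta1 above 1 on both.

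**Figure D4:**
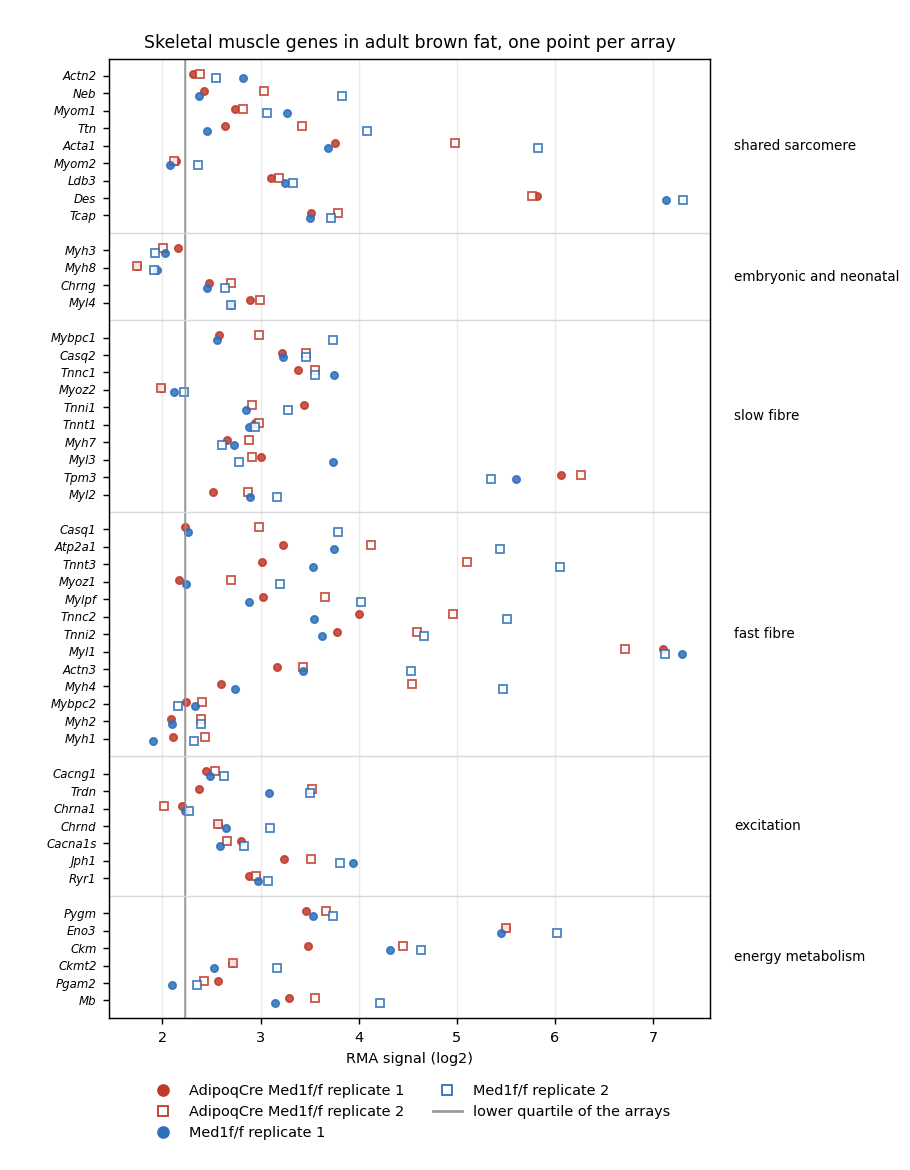
Log2 RMA signal of the 49 muscle genes on the 2 AdipoqCreMed1f/f and 2 Med1f/f arrays of adult brown fat, filled for replicate 1 and open for replicate 2, with a line at the lower quartile of the arrays. Des is the gene whose 2 knockout points (5.76 and 5.82) lie farthest below both control points (7.13 and 7.30), and for Acta1, Myh4 and Tnnt3 the open points of both groups lie to the right of the filled ones.

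Beside these genes, all 6 macrophage markers had both adult knockout arrays above both controls (median 1.34). The same held for all 5 fibroblast markers (median 0.72), against 21.8% of all genes. Neither list held a call, and each of these 11 genes had an unadjusted p under 0.05, against 13.6% of all genes. Their mean signals were 7.49 and 7.5 in knockout arrays, against 6.29 and 5.95 in control arrays for macrophages, and 8.62 and 8.5 in knockout arrays, against 7.81 and 7.60 in control arrays for fibroblasts. Brown adipocyte markers had a median of -0.84, and smooth muscle markers, whose cells also make desmin, one of 0.37. The part of these cells in the adult values of the muscle genes was not tested. Among the other 56 muscle genes 17 were above 0 and 39 below, with a median of -0.08. Of all genes, 50.5% were above 0, with a median of 0.00. The lowest were Myl6b (a light chain of slow and embryonic muscle, -1.36 ± 0.39), Pfkm (muscle phosphofructokinase, -1.04 ± 0.21) and Ankrd23 (a titin-binding ankyrin-repeat protein, -0.78 ± 0.30). The highest was Phkg1 (1.05 ± 0.31), with both knockout arrays above both controls. None of the 56 was called, and 6 had an unadjusted p under 0.05, against 13.6% of all genes.

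The adult and E17.5 knockout effects were then set against each other in a fit of all 11 brown fat arrays, as the adult effect minus the E17.5 effect. The models differ in age, in the Cre driver and in the genotype of the controls, and these cannot be told apart. The difference was below 0 for 43 of 49 muscle genes, with a median of -1.08, while 52.3% of all genes were above 0, with a median of 0.01. It was called for 3 of the 49, all negative, against 156 negative calls among all genes (0.703%). For Des it was -2.05 ± 0.25 (adjusted p = 0.0050), with a log2 fold change of -1.42 in the adult and 0.63 at E17.5. For Myom1, another M-band protein, it was -1.76 ± 0.34 (adjusted p = 0.029), with -0.39 in the adult and 1.37 at E17.5. For Myom2 it was -0.93 ± 0.20 (adjusted p = 0.047), with -0.09 in the adult, where both knockout arrays were dim, and 0.84 at E17.5.

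Myom1 had 2.74 and 2.82 in adult knockout arrays, against 3.27 and 3.06 in adult control arrays. At E17.5 it had 6.32, 6.18, 6.45 and 6.48 in knockout arrays, against 5.05, 5.51 and 4.41 in control arrays. Within each age the groups did not overlap, and they lay in opposite order. The same held for 9 of the 49 genes, higher at E17.5 and lower in the adult, against 0.875% of all genes. They were Actn2, Myom1, Ldb3, Des, Myh8, Myoz2, Myl1, Chrna1 and Chrnd, of which Des and Myom1 were called. Taken singly, 36 of the 49 genes were higher without overlap at E17.5, and 12 were lower without overlap in the adult. The adult share was close to that of all genes (20.1%). Whether 9 exceeds what both counts give together was not tested. Of the 9, Myh8 and Myoz2 were dim on all 4 adult arrays and Chrna1 on both adult knockout arrays. An intensity trend with robust eBayes ended the Myom2 call and kept those of Des and Myom1. Des was called whichever array was left out, while Myom1 and Myom2 were each called in 2 of the 11 such fits, which called 1 to 4 muscle genes. The other large negative estimates were those of Atp2a1 (-2.27 ± 0.71, adjusted p = 0.14), Tnnt3 (-2.08 ± 1.01, adjusted p = 0.35), Actn2 (-1.93 ± 0.55, adjusted p = 0.11) and Casq1 (-1.83 ± 0.73, adjusted p = 0.24), whose errors were larger. The positive ones were Tpm3 (0.45 ± 0.26), Myh1, Mb, Tcap, Myl4 and Mybpc2, none of them called.

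**Figure D5:**
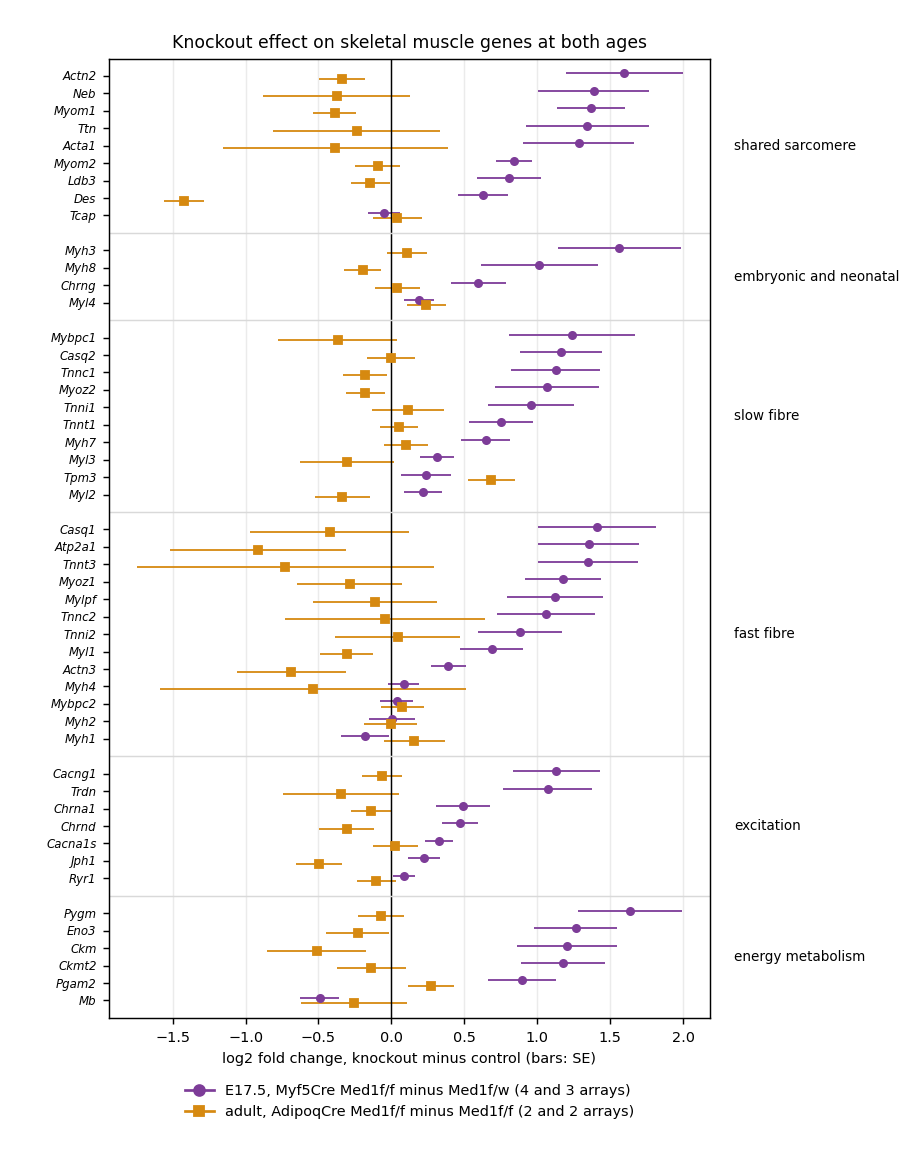
Log2 fold change, knockout minus control, of the 49 muscle genes in E17.5 brown fat (circles, Myf5CreMed1f/f minus Myf5CreMed1f/w, 4 and 3 arrays) and in adult brown fat (squares, AdipoqCreMed1f/f minus Med1f/f, 2 and 2 arrays), with standard errors as bars. The circles have a median of 0.90 and the squares one of -0.18, and Des (-1.42 in the adult, 0.63 at E17.5) is the widest separated of the genes with short bars.

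Acta1 lay at percentiles 99.0 to 99.5 of its own array in E17.5 knockout brown fat and at 93.6 to 98.6 in the E17.5 controls, and at 58.8 to 72.6 in adult knockouts and 58.4 to 81.5 in adult controls. Myh3 lay at 96.8 to 98 in E17.5 knockouts and 78.2 to 95.2 in E17.5 controls, and at 10.3 to 16.3 in adult knockouts and 7.71 to 10.1 in adult controls. Myh4 lay at 6.0 to 18.4 in E17.5 knockouts and 5.38 to 11.1 in E17.5 controls, and at 33.9 to 67.9 in adult knockouts and 38.8 to 78.2 in adult controls. These ranks describe a probe set within an array and are given with no test and no order between ages or between genes.

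In 3T3-L1 cells none of the 49 genes was called, against 64 of all genes (0.289%) over the 4 knockout and wild-type pairs. At an unadjusted p under 0.05, 2 of the 49 were found, both lower. Of all 22180 genes, 1491 were lower and 1245 higher at that p, a larger share in each direction. The log2 fold changes ran from -0.33 for Myh1 to 0.23 for Actn2, with a median of -0.01 and 21 of 49 above 0, against 49.8% of all genes. Myh3, Myh8 and Mylpf were dim on all 8 cell arrays, and 7 to 9 of the 49 genes were dim on each array. Titles and source labels disagree on the day of 4 of these arrays, and the pairs are the same under both.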

How the data were processed

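RNA from brown fat and 3T3-L1 cells was hybridised to Affymetrix mouse arrays with the GeneChip WT PLUS kit, per the labels' protocols. The authors deposited log2 values of 41345 rows on 19 arrays. RMA and Transcriptome Analysis Console are named in the submitters' processing notes. RMA corrects the background, brings arrays to one distribution and summarises probes, so a shift shared by all genes is removed. Nothing given here states the genome build or the annotation version.

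The platform annotation gave 1 symbol for 23521 rows, several for 1814 and none for 16010, which left 22180 genes. Tests used limma 3.58.1 under R 4.3.3 (lmFit with eBayes, two-sided, Benjamini-Hochberg over all genes, threshold 0.05), with 1 fit for each experiment, 1 for all 11 brown fat arrays for the difference, and pairs as a block in the cells. The code was tested on simulated data with independent noise. There the E17.5 fit called 84% of planted 2-fold changes and 100% of 4-fold ones. The adult fit called 1% and 40% of them, so a gene not called in the adult is not shown to be unchanged. The members and lists were chosen with earlier results of these data known. Named genes are role representatives and, in each brown fat comparison, the 5 highest and 5 lowest log2 fold changes. A gene named outside that rule was chosen after its values were seen. RMA values carry no test against background, and the number of arrays limits the precision.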

Additional observations from a re-analysis of the deposited data

Results flagged for a closer look

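In 3 of the 49 muscle genes an E17.5 knockout array stood apart from the other 3 by Dixon's test at the 95% level, and chance gives about 1 in 20 such groups. Chrng had 4.25 in knockout replicate 4, against 4.80 to 4.90 in the others. Myl2 had 5.14 in knockout replicate 1, against 4.68 to 4.72 in the others. Ryr1 had 4.62 in knockout replicate 1, against 4.35 to 4.39 in the others.

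The knockout effect differed between the ages, by the test of the adult minus the E17.5 effect over 11 arrays in limma, for Des (-2.05, adjusted p = 0.0050), Myom1 (-1.76, adjusted p = 0.029) and Myom2 (-0.93, adjusted p = 0.047). All 3 had a lower log2 fold change in the adult, and of the 3 only Des was called whichever array was left out. Age, Cre driver and control genotype differ together between the experiments and cannot be told apart.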

How the results depend on the processing

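The median of the muscle genes kept its sign in E17.5 brown fat under all alternatives, and 1 array decided its size. Leaving out 1 array at a time gave 0.58 (without control replicate 3) to 1.11, with 45 to 46 genes above 0. It gave 36 to 39 genes not overlapping, 0 genes called and 0 muscle genes called. Non-overlap is easier with an array left out, and its share over all genes was not computed there. Keeping only genes above the median gene, by the mean over all arrays of a comparison, knockout arrays included, left 11090 genes. Of these, 1296 were called at E17.5 (18 of 42 muscle genes tested). In the adult 107 were called (1 of 20, Des, with 3 above 0) and in the cells 198 (5 of 11 muscle genes above 0). Shifting arrays to a common median called 386 genes at E17.5 (2 muscle genes, Myom1 and Myom2) and 64 in the adult (1, Des). An intensity trend with robust eBayes called 215 genes at E17.5 (2 muscle genes, Myom1 and Myom2). It called 78 in the adult (1, Des) and 245 in the cells. In the difference it called 358 genes, with Des and Myom1 but not Myom2. Taking each experiment from the fit of all 11 brown fat arrays called 814 genes at E17.5 (15 muscle genes) and 1676 in the adult (1, Des).

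Same-numbered E17.5 arrays did not pair (correlations of deviations 0.31, -0.02 and 0.11), and 2 adult pairs are too few to show pairing. With a replicate block E17.5 gave 0 called genes and 0 muscle genes, the adult 139 and 1 (Des), and the difference 338, with Atp2a1 and Des but neither Myom1 nor Myom2. Knockout replicate 4 has no control of the same number, so the block takes it out of the E17.5 effect. The E17.5 median was 0.98 with the block and 0.98 with that array left out. With the block Tcap turned to 0.049 and Myh2 to -0.12 at E17.5, and Tcap to -0.0082 in the difference. Without the block the cells gave 54 called genes. The mean of all rows of a gene turned Tpm3 to -0.060 in the difference.

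With 1 adult array left out, a single array stands for its group, so non-overlap is easier, and its share over all genes was not computed. Leaving out 1 array gave adult medians of -0.23 (without knockout replicate 2) to 0.06 (without control replicate 2). It gave 7 to 30 adult genes above 0 and 5 to 20 not overlapping upward. In the difference it gave 206 to 524 called genes, 1 to 4 muscle genes, 4 to 8 above 0 and a median of -1.27 to -0.73. In the cells, leaving out 1 pair gave 20 to 32 called genes, 0 muscle genes, 19 to 26 above 0 and a median of -0.02 to 0.01. Single genes changed sign with 1 array left out. At E17.5 these were Mybpc2 (-0.080 to 0.11), Myh2 (-0.12 to 0.083) and Tcap (-0.11 to 0.049). In the adult they were Acta1 (-1.45 to 0.68), Ttn (-1.05 to 0.57), Chrng (-0.072 to 0.15), Myh7 (-0.018 to 0.22), Tnni1 (-0.15 to 0.38), Myh1 (-0.052 to 0.37), Myh4 (-1.91 to 0.83), Mylpf (-0.69 to 0.46), Tnnt3 (-1.99 to 0.53), Tnni2 (-0.48 to 0.57) and Mb (-0.79 to 0.28). In the difference they were Myl4 (-0.032 to 0.14), Tcap (-0.044 to 0.23), Mb (-0.30 to 0.77) and Myh4 (-1.99 to 0.74). Fewer arrays, or fewer genes tested, are part of these alternatives by construction, and the cause of the other changes was not tested.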
